A study of Homo sapiens with 6 samples.

Results

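The retinoblastoma family and the DREAM complex were followed in chromatin accessibility data of EndoC-βH3 cells through 9 genes: RB1, RBL1 and RBL2, which encode the pocket proteins, LIN9, LIN37, LIN52 and LIN54, which encode the MuvB core, and MYBL2 and FOXM1, the activators that join that core in cycling cells. Their regions were chosen by position. A promoter region overlapped the 2 kb on either side of the start site of a protein-coding transcript of a member, and a distal region was any other whose midpoint lay nearest to a start site of a member, within 100 kb. This gave 27 of the 108542 regions in the table of accessible chromatin, 10 at promoters and 17 distal. Every gene had a promoter region, LIN54 had a pair of them, and 7 genes had distal regions, whereas LIN37 and FOXM1 had none.

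EndoC-βH3 is a human beta cell line of fetal pancreatic origin, immortalised with hTERT and SV40 large T antigen carried on transgenes that an inducible Cre recombinase can excise. The 3 libraries of the senescent group came from cells given 4-hydroxytamoxifen (4-OHT) for 3 weeks, which triggers this excision, and the 3 libraries of the non-senescent group came from cells that kept the transgenes. All cells are labelled wild type and carry the inducible Cre, and each library was made from 100000 cells. The labels give the 4-OHT concentration in mM and the methods of the study in μM, and the vehicle of the control cells is not stated. Exposure to 4-OHT, loss of large T antigen and hTERT, and senescence changed together between the groups, so their shares in a difference cannot be told apart. The sources do not say whether the libraries of a group came from separate cultures, so p-values may measure a technical spread.

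Pocket proteins bind E2F transcription factors and hold back genes needed for DNA synthesis. RB1 acts mainly on activating E2Fs, whereas RBL1 (p107) and RBL2 (p130) join E2F4 or E2F5, a DP partner and the MuvB core to form DREAM, which represses both G1/S and G2/M genes in resting cells. Within MuvB, LIN52 makes the contact with the pocket protein, LIN54 binds the CHR element of DNA, LIN37 is needed for repression, and LIN9 is needed for the contact with B-MYB, the product of MYBL2. When cyclin-dependent kinases phosphorylate the pocket proteins, the MuvB core is released to B-MYB and later FOXM1, and G2/M genes are switched on. Large T antigen binds all pocket proteins and prevents their repression of E2F, so the non-senescent cells of this line divide with the family inactivated.

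The authors' deposited table gives each region a mean signal (the normalised read count averaged over the 6 libraries), a log2 fold change with its standard error (SE), and a p-value adjusted over all regions, from DESeq2. It holds no value for a single library, so neither the spread within a group nor the depth of a library can be shown, and intervals of 95% were computed from the SE. Which group is the numerator is stated nowhere in that table. Senescent over non-senescent was assumed, from the labelling of the study and because the MKI67 promoter would otherwise open, and every direction below depends on it. MKI67 is a cell cycle gene, so lower values at other cell cycle genes below are not independent evidence for this direction. A region is called higher or lower at an adjusted p-value under 0.05 with a fold change over 1.5. All 11 beta cell markers examined had a promoter region, with mean signals from 183 to 7894 and a median of 1627, whereas 12 of 17 markers of other pancreatic or stromal cells had one, with mean signals from 43.2 to 2101 and a median of 168.5. The strongest of the latter were CPA1 (2101), IRX2 (1340) and KRT19 (1059). The duct marker CFTR, the acinar marker PRSS1, the leukocyte marker PTPRC, the fibroblast marker PDGFRB and the endothelial marker CDH5 had none. Some markers moved between the groups: INS (log2 fold change 1.11) and IAPP (0.63) were called higher in senescent cells, and the delta cell markers SST (-1.08) and HHEX (-0.87) and the duct marker SOX9 (-0.59) were called lower, while KRT19 (-0.37) and CPA1 (-0.19) were lower and SLC30A8 (0.28) and CD68 (0.29) higher by the adjusted p-value alone. Their part in the results at the members was not tested.

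The promoter sequences of RBL1, RBL2, LIN54 and LIN52 are shown because the pocket proteins RBL1 and RBL2 differed most in their promoter accessibility, and because E2F matches lie beside a CHR in LIN54 and next to the start site in LIN52. Each is the 200 bases upstream of a start site in RefSeq (GRCh38.p14), written 5′ to 3′ on the strand of the gene. Capitals mark matches to the E2F, CHR, NF-Y, MYB and forkhead motifs. Matches to the GC box (GGGCGG), which was also searched, were left in lower case. These sequences are followed by 30 bases around the E2F matches at LIN9 and MYBL2, from hg38.
RBL1, chr20:37095998-37096197, minus strand: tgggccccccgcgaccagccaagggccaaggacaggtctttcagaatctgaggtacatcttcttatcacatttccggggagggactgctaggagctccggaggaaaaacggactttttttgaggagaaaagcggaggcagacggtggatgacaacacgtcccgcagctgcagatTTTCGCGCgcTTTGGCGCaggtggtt
RBL2, chr16:53434271-53434470, plus strand: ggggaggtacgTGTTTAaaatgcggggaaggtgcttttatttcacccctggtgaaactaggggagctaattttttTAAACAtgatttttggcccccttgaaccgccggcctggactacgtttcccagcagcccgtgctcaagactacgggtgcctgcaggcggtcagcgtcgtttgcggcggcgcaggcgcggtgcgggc
LIN54, chr4:83010824-83011023, minus strand: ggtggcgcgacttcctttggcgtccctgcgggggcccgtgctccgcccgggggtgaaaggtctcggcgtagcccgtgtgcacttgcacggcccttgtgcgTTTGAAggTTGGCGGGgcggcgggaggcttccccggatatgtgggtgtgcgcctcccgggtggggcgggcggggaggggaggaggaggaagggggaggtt
LIN52, chr14:74084756-74084955, plus strand: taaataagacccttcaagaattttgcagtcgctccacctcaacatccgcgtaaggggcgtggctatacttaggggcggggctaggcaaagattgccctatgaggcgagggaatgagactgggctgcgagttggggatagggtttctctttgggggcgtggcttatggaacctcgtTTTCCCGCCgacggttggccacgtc
LIN9, chr1:226309060-226309089, minus strand: acccccccctTTTCCCGCCtgctgcttgcc
MYBL2, chr20:43667062-43667091, plus strand: cgccgacgcgcTTGGCGGGagatagaaaag
The capitals mark E2F matches in RBL1 (TTTCGCGC and TTTGGCGC), LIN52 and LIN9 (each with TTTCCCGC and TTCCCGCC, which overlap) and MYBL2 (TTGGCGGG), forkhead matches in RBL2 (TGTTTA and its reverse complement TAAACA), and in LIN54 the CHR (TTTGAA) followed by an E2F match (TTGGCGGG).

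Relative to the RefSeq start sites, the matches in RBL1 begin 26 and 16 bases upstream, those in LIN52 25 and 24 bases upstream and that in MYBL2 41 bases upstream. The MYBL2 match lies downstream of the outermost start of the gene in GENCODE, at position 43667019, and so inside the first exon of that annotation. The search covered both strands for 6 E2F octamers (those above, TTTGCCGC included), the CHR, the NF-Y box (CCAAT), the MYB site CAACGG with its variant TAACGG, the MYB site CAACTG with its variant TAACTG, the forkhead core and the GC box (GGGCGG). RefSeq held 13 promoters of 300 bases for 8 of the members, and FOXM1 had no entry. The RB1 entry (chr13:48476200-48476499) lies inside the gene, far from the RB1 promoter region, and supplies 1 of the MYB matches counted below. An E2F match was found in 5 of the 13, belonging to 4 genes (RBL1, LIN52, LIN54 and MYBL2), while 6.60% of all 35116 promoters had one. The CHR was in 5 of 13 against 15.2% of all promoters, the GC box in 8 against 45.0%, the NF-Y box in 3 against 34.6%, the MYB site in 2 against 25.7% and the forkhead core in 2, both of RBL2, against 12.3%. Entries of 1 gene can overlap, as those of LIN54 do, and these counts describe letters and not bound factors. In the central 300 bases of the accessible regions, E2F matches were in 2 of 10 promoter regions (RB1 and LIN9) against 7.51% of all promoter regions, and in 0 of 17 distal regions against 1.43% of all distal regions.

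The pocket protein genes diverged at their promoters. Accessibility in senescent cells was lower at RBL1, lower by less than the fold limit at RB1, and higher by less than the limit at RBL2. At RBL1 (chr20:37095023-37096662, over the first exon, with matches shown above) the authors' mean signal was 1358 and the log2 fold change -0.73 (SE 0.066, 95% interval -0.86 to -0.60, adjusted p = 3.7e-26), a fold of 0.604. Only 0.699% of the 1001 promoter regions nearest to it in mean signal, itself included, had a lower fold change, so RBL1 lay at the low end of promoters of its strength. A lncRNA on the opposite strand also starts within 2 kb of the RBL1 region. RB1 itself (chr13:48303074-48304635) had a mean signal of 934 and a log2 fold change of -0.37 (SE 0.072, -0.51 to -0.23, adjusted p = 2.2e-06). The divergent lncRNA RB1-DT also starts within 2 kb of the RB1 region. RBL2 (chr16:53434022-53435652, mean signal 855) gave 0.20 (SE 0.082, 0.04 to 0.36, adjusted p = 0.0368), above 91.5% of promoter regions of like signal. With the trend of the fold change on GC content removed, RB1 moved to -0.22 and RBL2 to 0.34, both still with adjusted p-values under 0.05. The difference between RBL2 and RBL1 was 0.93 (95% interval 0.72 to 1.13), and that between RBL2 and RB1 was 0.57 (0.36 to 0.78), with the errors of the regions taken as independent.

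Among the promoters of LIN9, LIN37, LIN52 and LIN54, that of LIN9 was lower in senescent cells, and those of the other MuvB members showed no change that passed the test. The LIN9 promoter (chr1:226308360-226309858) had a mean signal of 328, the weakest of the 10, and a log2 fold change of -0.63 (SE 0.11, -0.85 to -0.40, adjusted p = 3.8e-07). It lies near the limit, and with the trend of the fold change on mean signal or on GC content removed it stood at -0.53 or -0.48 and was no longer called, although its adjusted p-values stayed under 0.05. LIN37 (chr19:35748268-35748923, mean signal 1659) gave 0.01 (-0.11 to 0.13, adjusted p = 0.886). A lncRNA on the opposite strand starts within 2 kb of the LIN37 region. LIN52 (chr14:74084154-74085226) had the highest mean signal of the members, 3394, and gave -0.10 (-0.20 to -0.01, adjusted p = 0.0786). The divergent start of ALDH6A1 lies within 2 kb of that region as well, so the region's signal cannot be assigned to either gene. At LIN54 the stronger region (chr4:83012257-83013716, mean signal 1857) gave -0.11 (-0.22 to -0.01, adjusted p = 0.0646), and the weaker one over a downstream start site (chr4:83010501-83010954, mean signal 380), which holds the CHR and E2F letters shown above, gave 0.11 (-0.09 to 0.31, adjusted p = 0.419). LIN9 lay below LIN37 by a log2 difference of -0.64 (-0.89 to -0.38), and the difference between LIN9 and RBL1 was 0.10 (-0.16 to 0.36).

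Both activators that succeed DREAM in the cell cycle had lower promoter accessibility in senescent cells, by less than the fold limit. At FOXM1 (chr12:2876499-2878398), a forkhead factor of G2/M genes, the mean signal was 853 and the log2 fold change -0.46 (SE 0.072, -0.60 to -0.32, adjusted p = 2.2e-09). Start sites of RHNO1 and TULP3 transcripts, which run the other way, also lie within 2 kb of the FOXM1 region. At MYBL2 (chr20:43666442-43667185) the mean signal was 549.5 and the log2 fold change -0.34 (SE 0.099, -0.54 to -0.15, adjusted p = 0.00205). With the trend on mean signal or GC content removed the MYBL2 value was -0.21 or -0.19, with adjusted p-values of 0.071 and 0.11, so its difference depends on that choice, whereas FOXM1 passed the test under both.

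**Figure D1:**
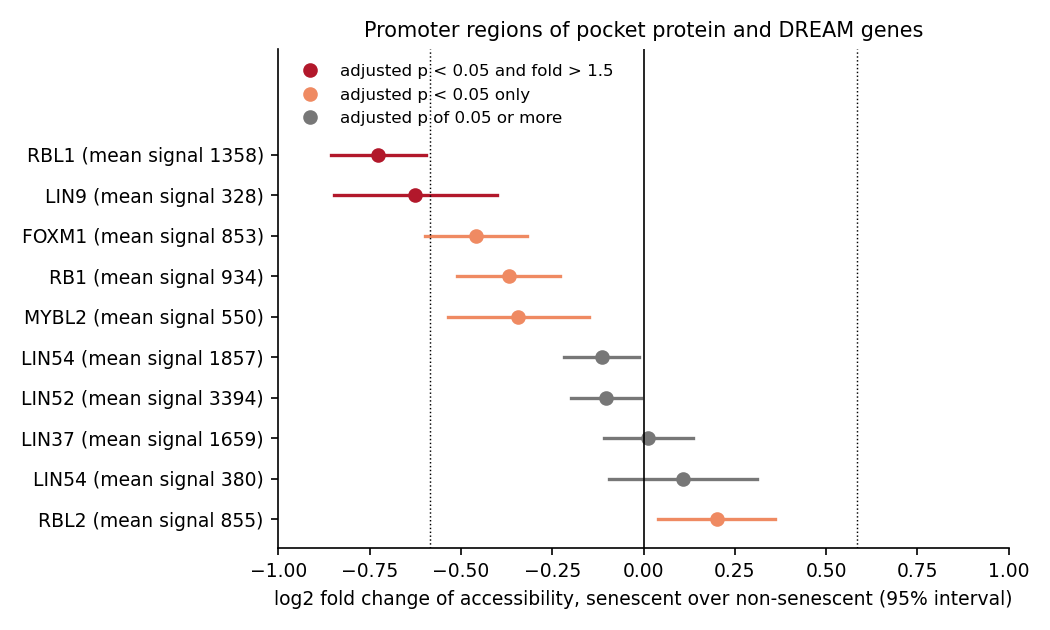
Log2 fold change of accessibility, senescent over non-senescent, at the 10 promoter regions, with the authors' mean signal beside each gene. Points are the authors' estimates, bars their 95% intervals and dotted lines a fold change of 1.5. RBL1 and LIN9 lie past the lower line and RBL2 lies above 0.

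Together, 2 of the 10 promoter regions were called lower, against 9.04% of all 20094 promoter regions, and 0 were called higher, against 3.56%. By the adjusted p-value alone, 5 of 10 were lower, against 34.7%, and 1 of 10 was higher, against 10.2%. The median mean signal was 894 for the 10 and 506 for all promoter regions, with median SEs of 0.072 and 0.095. Regions with a smaller SE pass that test at smaller changes. By DESeq2's unadjusted p-value under 0.05, 7 were lower and 1 higher, against 8033 lower and 2444 higher of all 20094 promoter regions. The median log2 fold change of the 10 was -0.23, and that of all promoter regions was -0.13, so part of the lower values is shared with promoters at large. RBL1 ranked lowest, followed by LIN9, FOXM1, RB1, MYBL2, LIN54, LIN52, LIN37, the second LIN54 region and RBL2. The intervals of 30 of the 45 pairwise differences excluded 0, without adjustment for their number, and neighbours in this order such as RB1 and MYBL2 (-0.03, -0.27 to 0.21) could not be told apart. Per kb of region, mean signal ran from 218.7 at LIN9 to 3166 at LIN52, a comparison of levels for which the table gives no error.

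**Figure D2:**
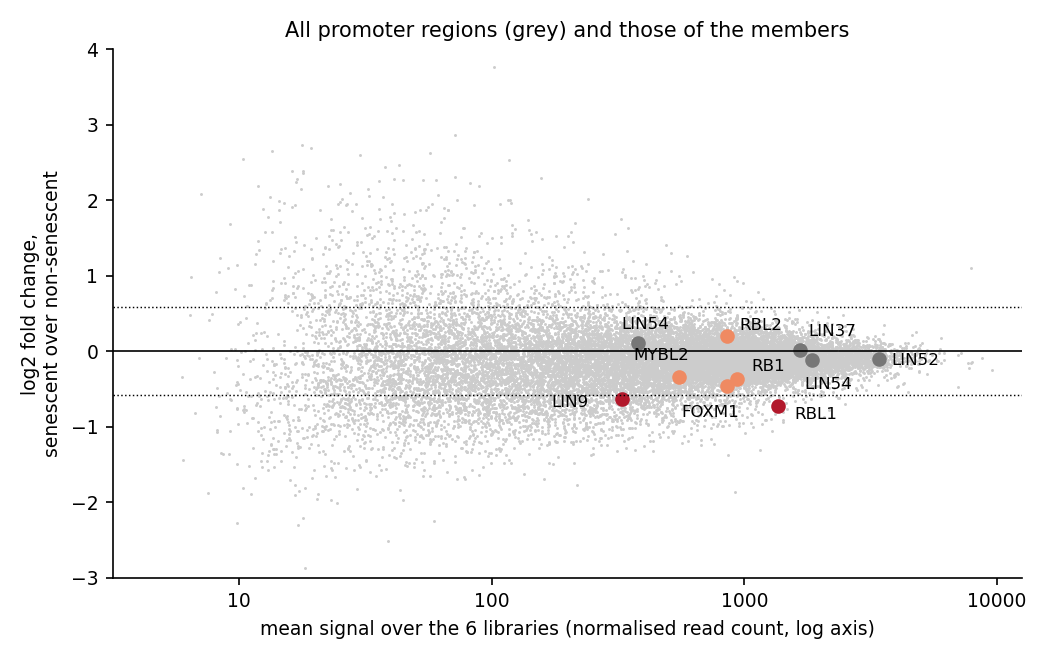
Log2 fold change against mean signal (log axis) for all 20094 promoter regions (grey) and the 10 member regions, red where called, orange where only the adjusted p-value passed, dark grey otherwise. Dotted lines mark a fold change of 1.5. RBL1 lies at the lower edge of the regions of its signal.

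The distal regions were mixed, with lower accessibility in senescent cells at some regions of MYBL2, RBL1, RBL2, LIN52 and LIN54 and no distal region higher by the test. Of the 17 regions 5 were called lower, at MYBL2 (2), RBL1, LIN52 and LIN54, against 10.6% of all 88448 distal regions, and 0 were called higher, against 18.1%. By the adjusted p-value alone 8 were lower, against 18.3%, and 0 higher, against 23.4%. By DESeq2's unadjusted p-value under 0.05, 9 were lower and 2 higher. The shares of all distal regions at the unadjusted threshold were not counted, so nothing is read from these 2 counts. The median log2 fold change was -0.29, and that of all distal regions was 0.08. The 17 were richer in G and C than distal regions in general, with medians of 50.7% and 44.8%, and 8 had a mean signal under 50, where errors are wide. The count of 5 fell to 3 where weaker regions, under a mean signal of 50, were set aside, and to 1, the intronic MYBL2 region, either when the fold limit of 1.5 was tested directly or when start sites of all genes were used. It stayed at 5 after correction for the GC trend.

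MYBL2 had 5 distal regions, all with a log2 fold change below 0. The change of greatest size among them was in an intron 14.9 kb downstream of the start (chr20:43681490-43682588), with a mean signal of 764 and a log2 fold change of -1.08 (SE 0.077, -1.23 to -0.93, adjusted p = 2.1e-42), a fold of 0.474. This region lay below the MYBL2 promoter by -0.74 (-0.98 to -0.49), and 1.30% of distal regions of like signal had a lower value. The region with the highest signal, 9.4 kb upstream (chr20:43656985-43658233, mean signal 1484), gave -0.34 (-0.46 to -0.23, adjusted p = 1.6e-08), close to the value at the promoter. A region 13.9 kb upstream (chr20:43652976-43653283, mean signal 173) was called lower at -0.75 (-1.05 to -0.46, adjusted p = 4.7e-06), but it overlaps RPL27AP, a processed copy of a ribosomal protein gene, and reads may be shared with other copies. A weak region 25.1 kb downstream in a coding exon gave -0.84 (adjusted p = 0.0532) and one 36.3 kb upstream, inside IFT52, gave -0.10 (adjusted p = 0.870).

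The centre of the intronic MYBL2 region is printed as the distal site with the smallest adjusted p-value among the members. It holds no E2F octamer, and the capitals mark the forkhead core in reverse complement (TAAACA), a motif present in 26.4% of the central 300 bases of all distal regions.
MYBL2 intron, chr20:43681940-43682139, hg38, plus strand: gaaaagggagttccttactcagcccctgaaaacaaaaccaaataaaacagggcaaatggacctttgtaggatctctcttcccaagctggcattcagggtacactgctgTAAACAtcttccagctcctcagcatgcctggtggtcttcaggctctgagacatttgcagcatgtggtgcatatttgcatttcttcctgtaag

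The distal region of RBL1, 6.7 kb upstream in a coding exon of MROH8 (chr20:37102581-37102900, mean signal 47.3), was called lower at -1.14 (SE 0.29, -1.71 to -0.56, adjusted p = 5.2e-04). Its wide interval includes the promoter value. RBL2 had a strong region 60.5 kb upstream (chr16:53372994-53373983, mean signal 1143) with a log2 fold change of -0.29 (-0.42 to -0.17, adjusted p = 3.8e-05), below its own promoter by -0.49 (-0.70 to -0.29), and a weaker one 18.4 kb upstream (mean signal 112) at 0.38 (0.01 to 0.74, adjusted p = 0.0883). Start sites of a lncRNA and of the pseudogene MPHOSPH10P1 lie within 2 kb of the region 60.5 kb upstream. The nearest protein-coding start site is the only link of these distal regions to RBL2. RB1 had 1 distal region, 8.9 kb upstream, at -0.15 (-0.80 to 0.49, adjusted p = 0.738), at a mean signal of 31.6 and with an interval that spans 0 widely.

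In the MuvB genes, LIN52 had 3 intronic regions. That 49.3 kb downstream of the start (chr14:74133847-74134705, mean signal 130) was called lower at -0.61 (-0.97 to -0.24, adjusted p = 0.00396), that at 55.6 kb (mean signal 513) gave -0.32 (-0.49 to -0.14, adjusted p = 0.0021), and that at 26.9 kb gave 0.18 (adjusted p = 0.70). Both of the former lay below the LIN52 promoter, by -0.50 (-0.88 to -0.13) and -0.21 (-0.42 to -0.01). LIN54 had a pair of weak intronic regions, which differed from its stronger promoter region in opposite directions, by -0.92 (-1.68 to -0.16) and 0.89 (0.11 to 1.67). One, 20.8 kb downstream of the nearest start (chr4:82989761-82990130, mean signal 26.8), was called lower at -1.03 (-1.79 to -0.28, adjusted p = 0.0202), and the other, at 11.5 kb (mean signal 23.7), gave 0.77 (0.00 to 1.55, adjusted p = 0.101). The 3 regions upstream of LIN9, at 23.7, 40.5 and 46.5 kb, gave 0.12, 0.19 and 0.44 with adjusted p-values of 0.651, 0.471 and 0.273. Each exceeded the LIN9 promoter, by 0.75 (0.30 to 1.20), 0.81 (0.36 to 1.26) and 1.06 (0.40 to 1.73).

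**Figure D3:**
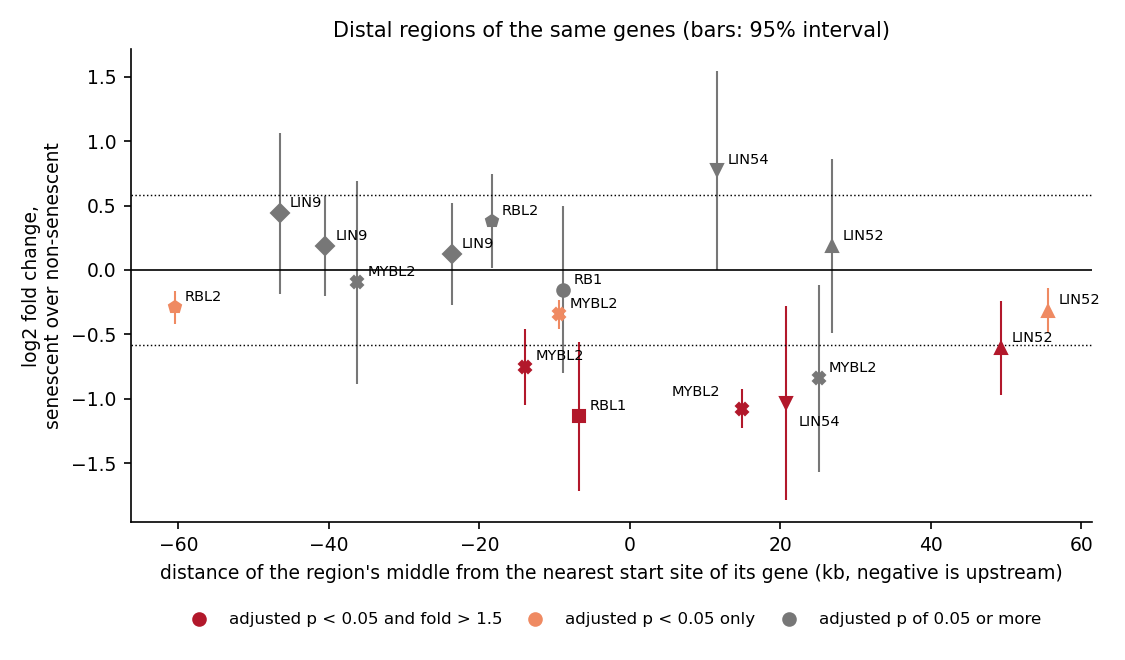
Log2 fold change of the 17 distal regions against the distance (kb, negative is upstream) of their midpoint from the nearest start site of the gene. Bars are 95% intervals, dotted lines a fold change of 1.5, colours as in the plot of promoters and marker shapes the genes. The MYBL2 region at 14.9 kb has a narrow interval from -1.23 to -0.93.

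Several regions inside the genes were nearer to the start of another gene and so are not among the 27. RB1, which spans 295.7 kb, held 7 of these, assigned to RCBTB2 or CYSLTR2, of which 1 was called lower (chr13:48492128-48492930, mean signal 113, log2 fold change -0.60, adjusted p = 0.0130). LIN9 held 2, and 1 of them (chr1:226263002-226263964, mean signal 126, nearest to MIXL1) was called lower at -0.62 (adjusted p = 0.00156). RBL1 and LIN52 held 1 each, neither called.

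The surrounding pathway was read at the promoter region of highest mean signal of each gene, in lists of partners, inputs and targets. Of the 6 other DREAM components or regulators (E2F4, E2F5, TFDP1, TFDP2, RBBP4 and DYRK1A) 0 were called by DESeq2, with 2 lower and 1 higher at an unadjusted p-value under 0.05, and 2 were lower by the adjusted p-value alone, 33.3% against 34.7% of all promoter regions. TFDP2, a DP partner of E2F, gave -0.41 (adjusted p = 1.4e-09) and TFDP1 gave -0.15 (adjusted p = 0.188). The histone chaperone RBBP4 of the MuvB core, in a region shared with ZBTB8OS, gave -0.13 (adjusted p = 0.0368). E2F5 gave 0.14 (adjusted p = 0.0678). The list's median of -0.12 was near that of all promoter regions, -0.13.

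Of the 14 listed inputs of the pocket proteins, chiefly cyclins, kinases and inhibitors, 13 had a promoter region, CCND2 being the exception. The inhibitors CDKN2A (p16) and CDKN2B were not on this list. CCNE1 (cyclin E1) was called higher at 0.62 (SE 0.14, adjusted p = 4.3e-05), and 0 were called lower, with 7 lower at an unadjusted p-value under 0.05 and the same number by the adjusted p-value, 53.8% against 34.7% of all promoter regions. The kinase CDK2, in a region shared with PMEL, gave -0.57 (adjusted p = 5.8e-06) and the inhibitor CDKN1B (p27) gave -0.42 (adjusted p = 4.4e-06). CCNE2 (cyclin E2), in a region shared with NDUFAF6, gave -0.37 (adjusted p = 4.4e-07). The median was -0.13. With the trend on GC content removed, CCNE1 was no longer called.

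The target lists had medians below that of all promoter regions. Of 29 G1/S genes with a promoter region 4 were called lower and 0 higher, 13.8% lower against 9.04% of all promoter regions, and 21 were lower by the adjusted p-value alone, 72.4% against 34.7%, with a median of -0.28. They were led by the activator E2F2 (-0.95, SE 0.10), the thymidylate synthase TYMS (-0.66, SE 0.066) and the flap endonuclease FEN1 (-0.65, SE 0.071). The replication clamp PCNA stood highest at 0.16 (adjusted p = 0.00287). The FEN1 region is shared with TMEM258 and the PCNA region with CDS2. Of the 30 G2/M genes 5 were called lower and 0 higher, 16.7% lower, and 23 were lower by the adjusted p-value alone, 76.7%, with a median of -0.34. The mitotic kinases PLK1 (-1.13, SE 0.11), AURKB (-1.08, SE 0.097) and NEK2 (-0.64, SE 0.056) were the lowest and CKAP2 the highest at 0.06 (adjusted p = 0.441). At an unadjusted p-value under 0.05, DESeq2 gave 21 lower and 1 higher in the G1/S list, and 26 lower and 0 higher in the G2/M list. Of all 20094 promoter regions, 8033 were lower and 2444 higher at that threshold. The members read in the same way, 1 region a gene, had 2 of 9 called lower and a median of -0.34. Across all lists 9 regions were called lower, and the count was 3 after correction for the signal trend and 4 after correction for the GC trend. Most regions of the input, G1/S and G2/M lists had a mean signal above the median of all promoter regions, 506, where errors are narrower. Shares passing the adjusted p-value depend on this, and its part in them was not tested. No test between the lists was made.

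**Figure D4:**
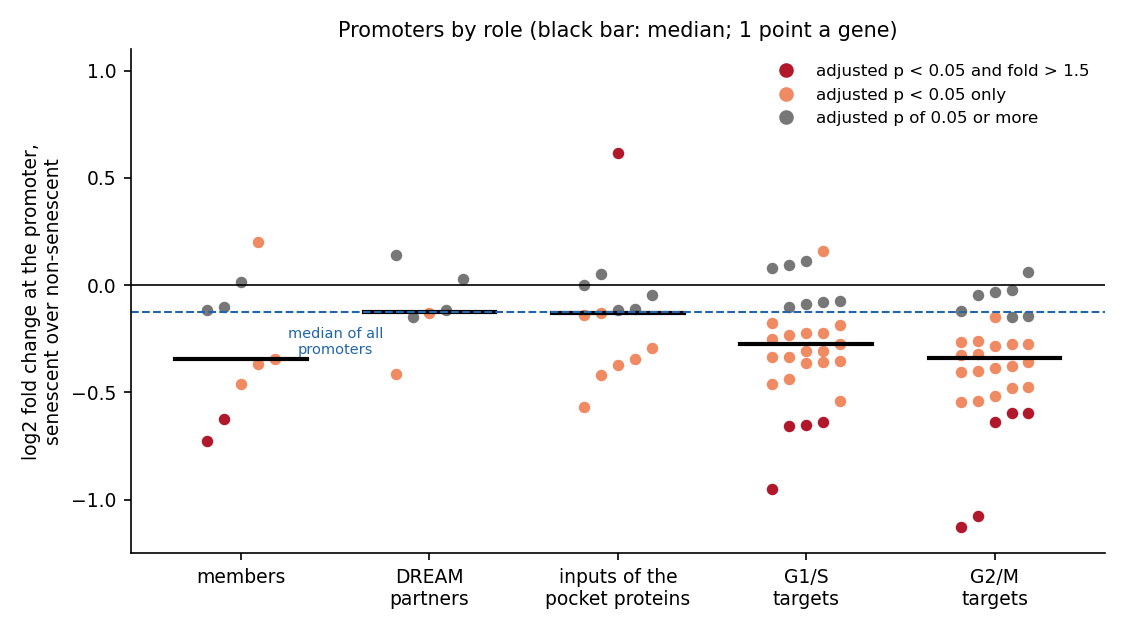
Log2 fold change at the promoter region of highest mean signal, 1 point a gene, for the members and for the partner, input, G1/S and G2/M lists. Black bars are list medians and the dashed line is the median of all promoter regions, -0.13. PLK1 and AURKB are the lowest points, at -1.13 and -1.08, and CCNE1 is the highest, at 0.62.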

How the data were processed

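The data were 3 senescent and 3 non-senescent ATAC-seq libraries of EndoC-βH3 cells, grouped by the labels. According to the study's methods, the authors trimmed reads (Trim Galore, cutadapt), aligned them to hg38 (Bowtie2), removed mitochondrial reads and duplicates (Picard), shifted reads for the transposase offset (deepTools), called peaks (MACS2), counted reads under their union and fitted DESeq2; versions are not given in the sources used here. The deposited mean signal is the authors' size-factor-normalised count averaged over libraries. The deposited fold change and SE are log2 values of the authors' model, the deposited score is their Wald statistic, and the deposited p-values are theirs. It was checked that the score equals fold change over SE and that adjusted p-values are Benjamini-Hochberg values over all 108542 regions. These columns are the authors' own comparison, and no test could be refitted. Whether region starts count from 0 or 1 is not stated, and they are printed as listed.

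Start sites came from GENCODE 44. The members, gene lists and motifs were chosen with earlier results of these data known. Named were all members, with their promoter regions, strongest distal region and every called region, and in each list the 3 genes with the lowest and the 1 with the highest fold change. Pairwise intervals and regions inside gene bodies were added after values were seen. The settings varied were the threshold on the adjusted p-value (0.01), the fold limit (none, or tested directly as a Wald test against 1.5), a mean signal of at least 50, centring, removal of running-median trends (1000 regions on each side), promoter windows of 1 and 0.5 kb, a distal limit of 50 kb and start sites of all genes. The counting steps were tested on simulated data. Python 3.11.15, pandas 2.3.3 and scipy 1.17.1 were used.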

Additional observations from a re-analysis of the deposited data

How the results depend on the processing

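Of 58 counts of called regions under the alternatives 42 stayed within 1.5 times the value reported. These 42 include counts that stayed at 0, some of which a stricter setting could not have raised. Of 81 fold changes of single regions 75 kept their sign and call. Without the fold limit 5 member promoters were lower and 1 higher, 8 member distal regions were lower, and 53 list promoters were lower and 2 higher. When the fold limit of 1.5 was tested directly (Wald), 0 member promoters, 1 distal region (MYBL2 at 14.9 kb) and 3 list promoters were lower and 0 list promoters higher. With a mean signal of at least 50, 3 distal regions were lower. With the trend on mean signal removed 1 member promoter (RBL1) and 3 list promoters were lower. With the trend on GC content removed 1 member promoter (RBL1) and 4 list promoters were lower and 0 list promoters higher. These trends moved the median of all promoter regions from -0.13 to -0.04 and -0.03. With start sites of all genes, 1 distal region (MYBL2 at 14.9 kb) was lower, since the others lay nearer to other genes. Fold changes turned at the LIN52 promoter (0.042) and the stronger LIN54 promoter region (0.014) with the trend on GC content removed, and at LIN52 26.9 kb downstream (-0.065) with the trend on mean signal removed. Their cause was not tested. MYBL2 at 25.1 kb became called, at -1.10, with the trend on mean signal removed. Among the 6 alternatives that make a threshold stricter or shift the fold changes, MYBL2 at 14.9 kb was called in 6, RBL1 at its promoter in 5 and LIN9 at its promoter in 3. No paired analysis was possible because no values per library were at hand, so the fit with the replicate block and the fits leaving out each library were not run. Regions of low signal carry wide errors, with an SE of up to 0.40 in the distal regions of the members, and only large differences could be detected there.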
